A study of Homo sapiens with 6 samples.

Results

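The EGFR family genes described here were 3 receptors (EGFR, ERBB2 and ERBB3), 6 ligands (AREG, EREG, HBEGF, TGFA, BTC and EPGN) and ERRFI1, an intracellular inhibitor of the receptors. They were chosen by name, as the genes of the deposited expression table that carry those symbols, and made up 10 of its 50867 genes. The study silenced the long noncoding RNA LNMAT1 in human bladder cancer cell lines, to ask which genes it acts on, and sequenced messenger RNA from the silenced and control cells. The hairpins were delivered by lentivirus, and puromycin was used to keep the cells that had taken them up. The 6 libraries comprised UM-UC-3 cells carrying the control hairpin sh-NC, the hairpin sh-LNMAT1#1 or the hairpin sh-LNMAT1#2, and 5637 cells carrying each of the same 3 constructs. Control cells therefore shared the infection and the selection with the silenced cells, and each line with its construct was represented by 1 library, so no value below has a replicate check within its group. UM-UC-3 cells were grown in DMEM and 5637 cells in RPMI medium, so the medium cannot be told apart from the line.

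Levels were FPKM, the number of fragments per kilobase of exon scaled to the depth of the library. Depth, worked out from genes with a single exon, was 24707000 fragments for the sh-NC library of UM-UC-3, 22279000 for its sh-LNMAT1#1 library and 22949000 for its sh-LNMAT1#2 library. It was 22438000 fragments for the library labelled 5637 sh-NC, 20803000 for the 5637 library with sh-LNMAT1#1 and 19375000 for that with sh-LNMAT1#2. Below, values of the UM-UC-3 libraries are listed with the control first, then hairpin #1, then hairpin #2, and values of the 5637 sh-LNMAT1 libraries with hairpin #1 before hairpin #2.

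As background, ligands of the EGFR family are made as membrane-anchored precursors that proteases release from the cell surface. A released ligand brings receptors together in pairs, which switches on their kinase domains and, through RAS, RAF and MEK, the kinase ERK. ERK in turn induces ligands and feedback inhibitors, and in the urothelium the pathway is known for epithelial growth and repair and, in bladder cancer, for gains of EGFR and ERBB2 activity.

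The labels were checked against the target of the hairpins and against cell-type markers before any comparison. LNMAT1 itself, listed under its symbol LINC01296, stood at 14.2, 6.20 and 6.70 FPKM in the UM-UC-3 libraries. Its level was 11.7 in the library labelled 5637 sh-NC, and 4.70 and 2.14 in the 5637 sh-LNMAT1 libraries. Both sh-NC libraries were thus above the 4 sh-LNMAT1 libraries, as log2 differences of -1.13 and -1.02 in UM-UC-3 and of -1.23 and -2.21 against the library labelled 5637 sh-NC. Each log2 difference is between values of log2(FPKM + 0.5).

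The library labelled 5637 sh-NC stood apart from the other libraries of that label. Across 12716 genes its Pearson r was 0.923, 0.985 and 0.934 with the UM-UC-3 libraries, but 0.617 and 0.622 with the 5637 sh-LNMAT1 libraries. Genes are not independent replicates, so this r describes the libraries only. The summed level of 7 epithelial markers (CDH1, EPCAM, KRT5, KRT17, KRT19, TP63 and GATA3) was 0.928, 0.874 and 0.749 FPKM in the UM-UC-3 libraries, and 0.737 in the library labelled 5637 sh-NC. In the 5637 sh-LNMAT1 libraries that sum was 504 and 722 FPKM, led by KRT19 at 299.6 and 409 FPKM, and 7 of 7 markers reached 1 FPKM there against 0 of 7 in the other libraries. Comparisons with that library are therefore given as labelled, and beside them comparisons that leave it out, except for the interaction of line and knockdown, which needs it.

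Markers of other cells moved with this split in part. Among 6 mesenchymal markers (VIM, ZEB1, ZEB2, CDH2, FN1 and SNAI2) the sum was 364, 159 and 186 FPKM in the UM-UC-3 libraries and 141 in the library labelled 5637 sh-NC, led in each by VIM, and 132 in either 5637 sh-LNMAT1 library, led by FN1. The sum hides opposite moves, since VIM was at least 103 FPKM in the other 4 libraries against 3.85 and 4.14 in the 5637 sh-LNMAT1 libraries, and ZEB1 at least 8.67 against 0.0264 and 0.00774, whereas FN1 was at most 2.27 against 109.6 and 102.4 FPKM and SNAI2 at most 1.98 against 10.06 and 13.8 FPKM. Of 3 leukocyte markers, CD68 made up nearly the whole sum, at 15.4, 29.2 and 13.0 FPKM in the UM-UC-3 libraries, 31.0 in the library labelled 5637 sh-NC, and 0.749 and 0.826 in the 5637 sh-LNMAT1 libraries. The other leukocyte markers were at or near 0, CD3E at 0 in every library and PTPRC at 0 in all but 5637 sh-LNMAT1#2 (0.0108 FPKM). The endothelial markers PECAM1 and VWF summed to at most 0.242 FPKM, in 5637 sh-LNMAT1#2, with 0.178 in 5637 sh-LNMAT1#1 and at most 0.146 in the other 4. Of 3 fibroblast markers, COL1A1 led the 5637 sh-LNMAT1 libraries, with sums of 8.32 and 6.56 FPKM against at most 0.460 in the others, while COL3A1 reached no more than 0.00865 FPKM. The part of these cell-type differences in the results below was not tested, and in bulk RNA fewer cells of a type cannot be told apart from less RNA per cell.

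Among the 10 genes themselves, the library labelled 5637 sh-NC was nearest on the log2 scale to UM-UC-3 sh-LNMAT1#1 for 6 genes and to UM-UC-3 sh-NC for 3. BTC alone was nearest to a 5637 library, sh-LNMAT1#1, at a distance of 0.10 against 0.23 to the nearest UM-UC-3 library. EREG and HBEGF were near both lines, at 0.06 and 0.02 to the nearest UM-UC-3 library against 0.13 and 0.18 to the nearest 5637 library. The remaining genes were at least 1.09 from either 5637 sh-LNMAT1 library. The same count over all genes was not made.

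**Figure D1:**
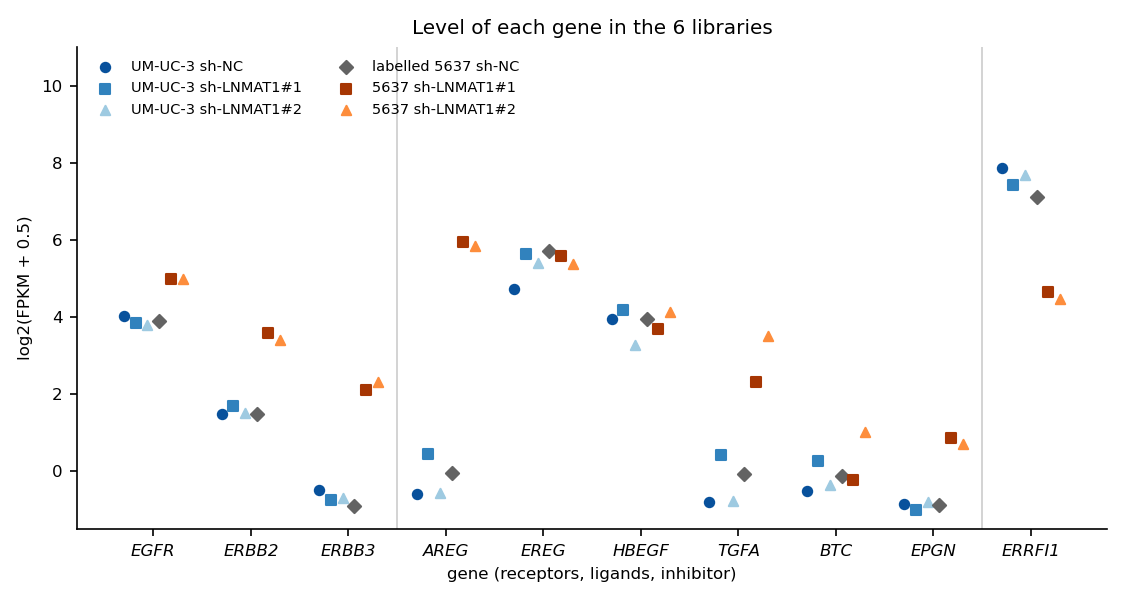
Level of each of the 10 genes, as log2(FPKM + 0.5) on the vertical axis, with 1 point for each of the 6 libraries and the genes grouped as receptors, ligands and inhibitor on the horizontal axis. The 5637 sh-LNMAT1 libraries lie highest for AREG (60.7 and 56.7 FPKM) and lowest for ERRFI1 (24.5 and 21.6 FPKM), while the library labelled 5637 sh-NC lies among the UM-UC-3 libraries for most genes.

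EGFR (ENSG00000146648, chromosome 7, hg38) binds all the ligands listed here and was the most abundant of the 3 receptors in each library. Its level was 15.6, 13.8 and 13.3 FPKM in the UM-UC-3 libraries, 14.3 in the library labelled 5637 sh-NC, and 31.0 and 31.3 in the 5637 sh-LNMAT1 libraries. The 5637 sh-LNMAT1 libraries were high and alike, and the other 4 were low and alike, with no overlap. ERBB2 (ENSG00000141736, chromosome 17) binds no known ligand and acts as the partner that the other receptors pair with. Its level was 2.29, 2.72 and 2.36 FPKM in the UM-UC-3 libraries, 2.28 in the library labelled 5637 sh-NC, and 11.5 and 10.1 in the 5637 sh-LNMAT1 libraries. The split was the same as for EGFR. ERBB3 (ENSG00000065361, chromosome 12) binds neuregulins, has a weak kinase of its own and signals mainly through PI3K when paired with ERBB2. Its level was 0.216, 0.0943 and 0.114 FPKM in the UM-UC-3 libraries, 0.0365 in the library labelled 5637 sh-NC, and 3.77 and 4.44 in the 5637 sh-LNMAT1 libraries. Outside the 5637 sh-LNMAT1 libraries ERBB3 was low, and its values there correspond to between 48.2 and 106 fragments in UM-UC-3 sh-NC, 19.0 and 41.8 with sh-LNMAT1#1, 23.6 and 52 with sh-LNMAT1#2, and 7.41 and 16.3 in the library labelled 5637 sh-NC, depending on how exon length is counted.

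The receptor mixture differed along the same split. Summed over the 3 receptors, the level was 18.2, 16.7 and 15.8 FPKM in the UM-UC-3 libraries, 16.6 in the library labelled 5637 sh-NC, and 46.3 and 45.8 in the 5637 sh-LNMAT1 libraries. EGFR made up 86.2%, 83.1% and 84.3% of that sum in the UM-UC-3 libraries and 86.0% in the library labelled 5637 sh-NC, against 67.0% and 68.3% in the 5637 sh-LNMAT1 libraries. ERBB3 made up 8.13% and 9.69% there, and at most 1.19% in the other libraries. Per merged exon length EGFR made up 59.8% and 60.8% in the 5637 sh-LNMAT1 libraries and at least 79.3% in the others, and ERBB3 12.0% and 14.2% against at most 1.88%, although the gene models of both could be matched only approximately. The order EGFR, ERBB2, ERBB3 was the same in all 6 libraries with either length.

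Against UM-UC-3 sh-NC, the silenced UM-UC-3 libraries differed little in EGFR and ERBB2. The log2 difference of EGFR was -0.17 and -0.23, that of ERBB2 was 0.20 and 0.04, and that of ERBB3 was -0.27 and -0.22. The ERBB3 levels lie under the pseudocount of 0.5 FPKM, which shrinks their difference, and with a pseudocount of 0.1 FPKM it was -0.70 and -0.56. Against the library labelled 5637 sh-NC, the log2 difference of EGFR was 1.09 with sh-LNMAT1#1 and 1.1 with sh-LNMAT1#2. For ERBB2 it was 2.11 and 1.93, and for ERBB3 2.99 and 3.20 (4.82 and 5.06 with a pseudocount of 0.1 FPKM). In each line the hairpins share their sh-NC library, so their differences are not independent.

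Comparing the 5637 sh-LNMAT1 libraries with the UM-UC-3 sh-LNMAT1 libraries leaves out the library labelled 5637 sh-NC and asks how the silenced lines differ. Limma was fitted to these 4 libraries, with p-values adjusted over 12716 genes and both libraries of a line above or below both of the other for each gene called here. The libraries of a line carry different hairpins, which stand in for replicates, so the spread of this fit includes differences between hairpins. EGFR was higher in 5637 by 1.17 ± 0.18 (log2 ± SE), with a limma adjusted p of 0.00705. ERBB2 was higher by 1.90 ± 0.20, with a limma adjusted p of 0.00197. ERBB3 was higher by 2.93 ± 0.21, with a limma adjusted p of 0.000536. But ERBB3 entered the test only because the 5637 sh-LNMAT1 libraries lifted its mean over 1 FPKM, so it had to differ. The size of its difference depends on the pseudocount, and was 4.36 with 0.1 FPKM and 2.21 with 1 FPKM. Leaving out 1 library at a time leaves a lone library in a line, which is assumed to vary like the others. The calls of EGFR and ERBB2 ended without 5637 sh-LNMAT1#1 and without 5637 sh-LNMAT1#2, as did most calls over all genes. Their differences were then 1.18 and 1.16 for EGFR and 1.8 and 1.99 for ERBB2. With all 6 libraries as labelled the limma adjusted p was 0.335 for EGFR and ERBB2 and 0.341 for ERBB3, the highest over their alternatives, whose lowest were 0.00328, 0.000377 and 7.92e-05.

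The ligands divided into those that set the 5637 sh-LNMAT1 libraries apart from the other 4 and those that did not. AREG (ENSG00000109321), EREG (ENSG00000124882), EPGN (ENSG00000182585) and BTC (ENSG00000174808) are neighbours on chromosome 4. From the start of EPGN, the EREG and AREG genes begin 56.7 and 137 kb further on, and BTC, on the opposite strand, begins at the far end of the block, 486 kb away, at chr4:74308473-74794686 (hg38). Since the levels of these neighbours diverged, the bases just upstream of AREG, EREG and EPGN are shown to let their start regions be compared. They were taken from RefSeq on GRCh38.p14, + strand, 248 bases each, at chr4:74444886-74445133 for AREG, chr4:74364895-74365142 for EREG and chr4:74308220-74308467 for EPGN. Capitals mark matches to TGACGTCA, the letters bound by CREB and ATF proteins, or to TATAAA, found at many core promoters.
AREG: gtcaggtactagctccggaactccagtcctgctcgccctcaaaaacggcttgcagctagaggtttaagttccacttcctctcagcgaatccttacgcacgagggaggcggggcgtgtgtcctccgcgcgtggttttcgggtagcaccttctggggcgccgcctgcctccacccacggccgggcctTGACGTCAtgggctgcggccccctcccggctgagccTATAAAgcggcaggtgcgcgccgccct
EREG: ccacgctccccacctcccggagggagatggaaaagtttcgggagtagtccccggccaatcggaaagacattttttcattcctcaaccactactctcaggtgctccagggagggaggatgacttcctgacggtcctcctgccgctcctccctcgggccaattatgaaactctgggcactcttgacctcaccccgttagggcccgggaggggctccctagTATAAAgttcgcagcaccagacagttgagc
EPGN: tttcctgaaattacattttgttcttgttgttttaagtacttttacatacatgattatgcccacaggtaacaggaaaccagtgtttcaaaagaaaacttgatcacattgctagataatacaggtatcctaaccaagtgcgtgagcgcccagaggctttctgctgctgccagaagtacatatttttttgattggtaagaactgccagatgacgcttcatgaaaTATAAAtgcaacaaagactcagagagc

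The 3 upstream stretches each held TATAAA, at 29 to 24 bases before the RefSeq start for AREG and EPGN and at 32 to 27 for EREG, where 2 bases lie between the end of the printed stretch and that start. TATAAA, searched on both strands, was present in 10.7% of 35116 upstream stretches of 248 bases. TGACGTCA was present in that of AREG alone among the 9 members with an entry, at 65 to 58 bases before the same start, and in 1.64% of all stretches, and both motifs together were present in 0.140%. The AP-1 letters TGANTCA, which overlap neither match, were present in 6.56% of stretches and not in these 3. The motifs were chosen after the AREG sequence had been seen, and a match describes the letters only. G and C made up 65.3% of the AREG stretch, 58.1% of the EREG stretch and 37.9% of the EPGN stretch. In all, 9 of the 10 genes had an entry, with 11 entries among them. Of the other members, ERBB2 had 1 match to TGANTCA, an entry of EGFR had 2 matches each to TGANTCA and TATAAA, and HBEGF, TGFA, BTC and ERRFI1 had none to any of these motifs.

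AREG, encoding amphiregulin, a heparin-binding ligand of EGFR with lower affinity than EGF, showed the widest range of the ligands. Its level was 0.165, 0.856 and 0.178 FPKM in the UM-UC-3 libraries, 0.465 in the library labelled 5637 sh-NC, and 60.7 and 56.7 in the 5637 sh-LNMAT1 libraries. These values correspond to 9, 42, 9, 23, 2781 and 2420 fragments. AREG was thus high in the 5637 sh-LNMAT1 libraries, while the other 4 stayed under 1 FPKM. EREG, encoding epiregulin, which binds EGFR and ERBB4, stood at 26.1, 49.5 and 41.5 FPKM in the UM-UC-3 libraries, 51.7 in the library labelled 5637 sh-NC, and 47.3 and 40.8 in the 5637 sh-LNMAT1 libraries. Only UM-UC-3 sh-NC was low, and the silenced libraries of the lines overlapped. EPGN, encoding epigen, stood at 0.0557, 0 and 0.0750 FPKM in the UM-UC-3 libraries, 0.0460 in the library labelled 5637 sh-NC, and 1.31 and 1.14 in the 5637 sh-LNMAT1 libraries, from 4, 0, 5, 3, 79 and 64 fragments. A floor of 3 fragments corresponds to 0.0463 FPKM in UM-UC-3 sh-LNMAT1#1, where EPGN was at 0. BTC, encoding betacellulin, stood at 0.195, 0.692 and 0.280 FPKM in the UM-UC-3 libraries, 0.415 in the library labelled 5637 sh-NC, and 0.355 and 1.54 in the 5637 sh-LNMAT1 libraries. It was highest in 5637 sh-LNMAT1#2, while 5637 sh-LNMAT1#1 lay within the range of the other libraries.

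The remaining ligand genes lie outside the cluster. TGFA (ENSG00000163235, chromosome 2), encoding TGF-alpha, a ligand of EGFR alone, stood at 0.0787, 0.847 and 0.0907 FPKM in the UM-UC-3 libraries, 0.445 in the library labelled 5637 sh-NC, and 4.48 and 10.9 in the 5637 sh-LNMAT1 libraries. Both 5637 sh-LNMAT1 libraries were above the other 4, and they differed from each other as well. HBEGF (ENSG00000113070, chromosome 5), encoding the heparin-binding ligand of EGFR and ERBB4 that also serves as the diphtheria toxin receptor, stood at 15.1, 17.6 and 9.16 FPKM in the UM-UC-3 libraries, 14.9 in the library labelled 5637 sh-NC, and 12.4 and 16.9 in the 5637 sh-LNMAT1 libraries. Its levels overlapped between the lines.

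The summed ligand level was 41.7, 69.4 and 51.3 FPKM in the UM-UC-3 libraries, 68.0 in the library labelled 5637 sh-NC, and 127 and 128 in the 5637 sh-LNMAT1 libraries. EREG was the leading ligand in the UM-UC-3 libraries, with 62.7%, 71.2% and 80.9% of the sum, and in the library labelled 5637 sh-NC, with 76.1%. HBEGF followed it there, with 36.1%, 25.3%, 17.9% and 21.9%. In the 5637 sh-LNMAT1 libraries, AREG led with 48.0% and 44.3%, followed by EREG with 37.4% and 31.9%. The AREG share was 1.23% or lower in the other 4 libraries. Because the deposited values divide by a length that counts overlapping exons in full, the shares were also computed per merged exon length, where AREG took 50.6% and 46.1% and EREG 33.1% and 27.9% in these libraries, in the same order.

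**Figure D2:**
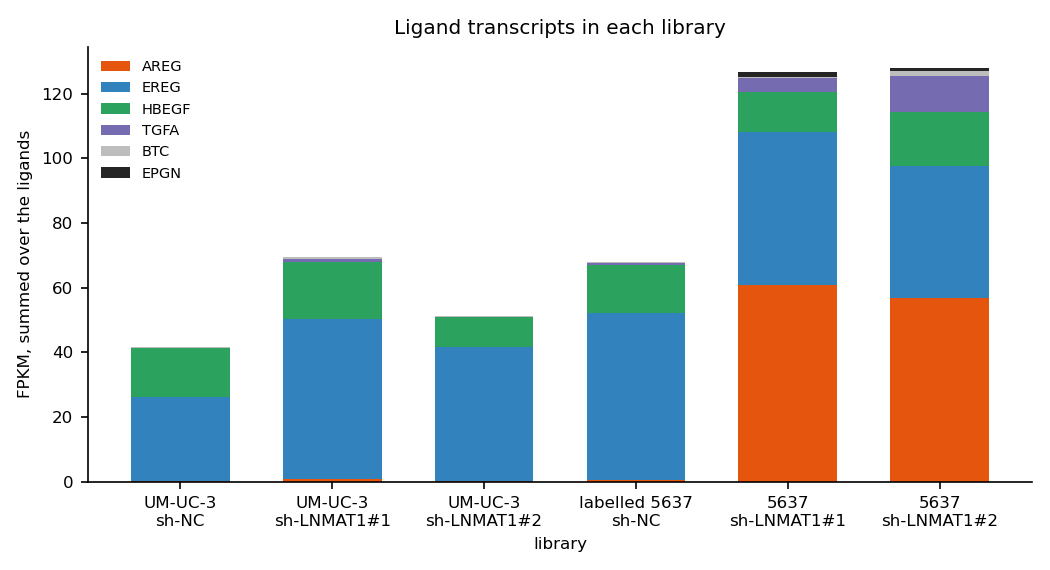
Summed FPKM of the 6 ligands (vertical axis) in each of the 6 libraries (horizontal axis), with the height of each coloured segment giving the FPKM of that ligand. EREG and HBEGF fill the UM-UC-3 bars and the bar labelled 5637 sh-NC, and AREG adds 60.7 and 56.7 FPKM in the 5637 sh-LNMAT1 bars.

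The UM-UC-3 libraries with sh-LNMAT1#1 and with sh-LNMAT1#2 differed from each other for several ligands. Against UM-UC-3 sh-NC, the log2 difference of AREG was 1.03 with sh-LNMAT1#1 and 0.03 with sh-LNMAT1#2. As a ratio of fragments scaled to depth, AREG was 5.18 (exact 95% interval 2.48 to 12.1) with sh-LNMAT1#1 and 1.08 (0.379 to 3.06) with sh-LNMAT1#2. TGFA showed the same pattern, with a log2 difference of 1.22 and 0.03 and ratios of 10.8 (6.20 to 20.2) and 1.15 (0.519 to 2.58). For BTC, the ratios were 3.55 (1.95 to 6.82) and 1.44 (0.699 to 3.01). AREG, TGFA and BTC were thus above the control with sh-LNMAT1#1, whereas with sh-LNMAT1#2 each interval included 1. EPGN did not share this, with 0 fragments against 4 in the control for sh-LNMAT1#1 and a ratio of 1.35 (0.290 to 6.78) for sh-LNMAT1#2. Intervals and floors cover counting error only. EREG was above UM-UC-3 sh-NC with both hairpins, by a log2 difference of 0.91 and 0.66. HBEGF went opposite ways, with 0.22 and -0.69. Over all genes, 10.8% of 12024 were at least 2-fold from UM-UC-3 sh-NC with sh-LNMAT1#1 alone, against 3.51% with sh-LNMAT1#2 alone. The sh-LNMAT1#1 library was most like the library labelled 5637 sh-NC, a control hairpin (Pearson r of 0.985). AREG, TGFA and BTC stood at 0.465, 0.445 and 0.415 FPKM there, also above UM-UC-3 sh-NC. Whether the rise of these ligands follows the hairpin or the library was not tested.

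Against the library labelled 5637 sh-NC, the log2 difference of AREG was 5.99 with sh-LNMAT1#1 and 5.89 with sh-LNMAT1#2. Ratios of fragments were 130.0 (86.7 to 206) and 122 (81.0 to 193). For TGFA the log2 difference was 2.40 and 3.59, with ratios of 10.1 (7.89 to 13.0) and 24.4 (19.2 to 31.3). EPGN gave ratios of 28.4 (9.37 to 141) and 24.7 (8.08 to 123), from only 3 fragments in that control. BTC gave ratios of 0.855 (0.473 to 1.53) and 3.71 (2.42 to 5.85), so the hairpins gave different values. EREG lay close to this control, at -0.13 and -0.34, and so did HBEGF, at -0.25 and 0.18.

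Between the silenced lines, without the library labelled 5637 sh-NC, AREG was higher in 5637 by 5.95 ± 0.36 (log2 ± SE), with a limma adjusted p of 0.000324. TGFA was higher by 3.08 ± 0.55, with a limma adjusted p of 0.0105. As with ERBB3, these ligands passed the minimum mean of 1 FPKM only through the 5637 sh-LNMAT1 libraries, so they had to differ. With pseudocounts of 0.1 and 1 FPKM the difference was 6.83 and 5.33 for AREG and 4.06 and 2.51 for TGFA. The line difference was -0.04 ± 0.20 for EREG and 0.18 ± 0.36 for HBEGF, with limma adjusted p of 0.881 and 0.715. EPGN and BTC, with means under 1 FPKM over the 6 libraries, were tested only without the filter. There the difference was 1.68 for EPGN and 0.45 for BTC, with limma adjusted p of 0.0295 and 0.638. In that setting 13.3% of 36963 genes were called either way. EPGN had 0 and 5 fragments in the UM-UC-3 sh-LNMAT1 libraries, levels under the pseudocount of 0.5 FPKM, which shrinks its difference. The TGFA call ended without 5637 sh-LNMAT1#1, without 5637 sh-LNMAT1#2 and without UM-UC-3 sh-LNMAT1#2, at differences of 3.67, 2.48 and 2.48. Leaving out a 5637 library ended most calls over all genes as well. With no filter the TGFA call also ended (limma adjusted p of 0.0993). With 6 libraries as labelled the limma adjusted p was 0.335 for AREG and TGFA, again the highest over their alternatives, whose lowest were 5.48e-06 and 0.00185.

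The genes next to the ligand cluster were read as a description of the region. Within 500 kb on either side, the table lists 30 genes, of which 8 had a mean of at least 1 FPKM, EREG and AREG among them. The other 6 were CXCL6, CXCL1, CXCL5, CXCL3, CXCL2 and MTHFD2L, all on the EPGN side and most of them chemokine genes. CXCL5 shared the AREG split, with at most 0.0515 FPKM in the UM-UC-3 libraries and a value of 0 in the library labelled 5637 sh-NC, against 58.2 and 81.9 FPKM in the 5637 sh-LNMAT1 libraries. CXCL1, between 54.8 and 122 FPKM, overlapped between these sets, as did CXCL2, between 18.0 and 66.8 FPKM. CXCL6, CXCL3 and MTHFD2L ran the other way, with CXCL3 at 5.72 and 5.49 FPKM in the 5637 sh-LNMAT1 libraries and at 10.4 to 24.4 in the others. Neighbouring genes of the region thus differed in opposite directions or overlapped.

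**Figure D3:**
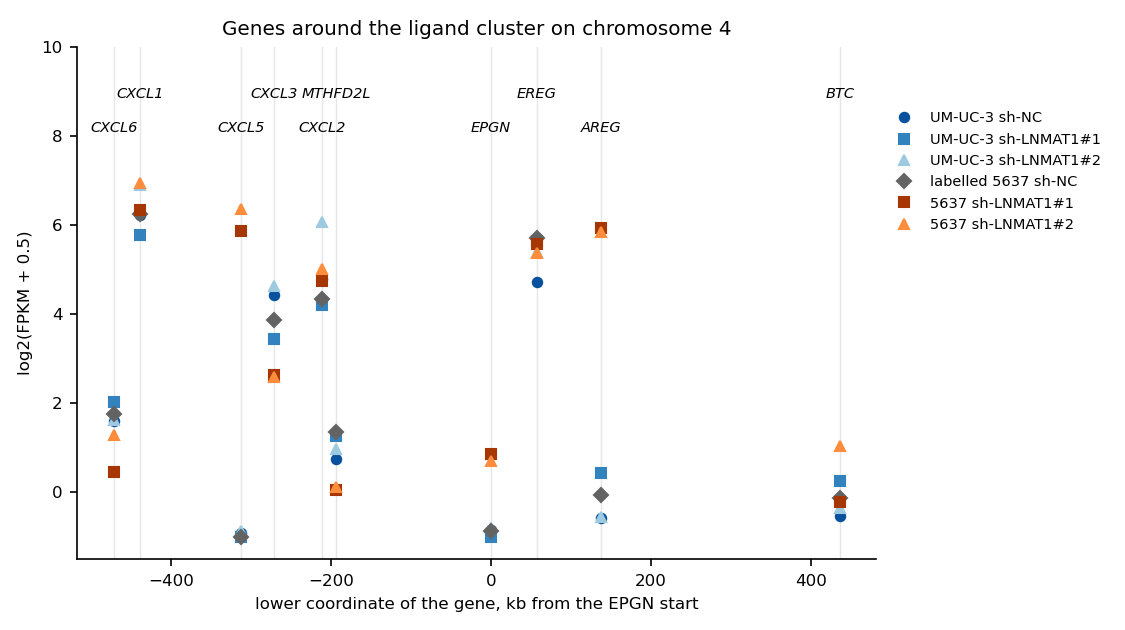
Level as log2(FPKM + 0.5) (vertical axis) of the ligand genes of chromosome 4 and of their neighbours with a mean of at least 1 FPKM, against the distance of the lower coordinate of each gene from the EPGN start in kb (horizontal axis), with 1 point per library. AREG at 137 kb and CXCL5 at -313 kb separate the 5637 sh-LNMAT1 libraries from the rest, while EREG at 56.7 kb does not.

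ERRFI1 (ENSG00000116285, chromosome 1) encodes MIG6, which binds the kinase domains of EGFR and ERBB2, blocks them and promotes removal of EGFR from the surface; it is itself induced by receptor signaling. Its level was 232, 171 and 206 FPKM in the UM-UC-3 libraries, 137 in the library labelled 5637 sh-NC, and 24.5 and 21.6 in the 5637 sh-LNMAT1 libraries. The inhibitor thus ran opposite to the receptors, low in the 5637 sh-LNMAT1 libraries and high in the other 4. The ratio of ERRFI1 to EGFR FPKM was 14.9, 12.4 and 15.5 in the UM-UC-3 libraries, 9.58 in the library labelled 5637 sh-NC, and 0.788 and 0.689 in the 5637 sh-LNMAT1 libraries. Per merged exon length the ratio was 0.947 and 0.828 in the latter and between 11.5 and 18.7 in the other 4, although the EGFR gene model of the table could be matched only approximately.

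The log2 difference of ERRFI1 against UM-UC-3 sh-NC was -0.44 with sh-LNMAT1#1 and -0.17 with sh-LNMAT1#2. Against the library labelled 5637 sh-NC it was -2.46 and -2.64. Between the silenced lines ERRFI1 was lower in 5637, by -3.01 ± 0.20 (log2 ± SE), with a limma adjusted p of 0.000432. Over the alternatives its limma adjusted p lay between 4.73e-05 and 0.335, the latter with 6 libraries as labelled.

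In FPKM, which is per length, the order of the levels changed between the sets of libraries. In UM-UC-3 sh-NC, ERRFI1 (232) stood above EREG (26.1), EGFR (15.6), HBEGF (15.1) and ERBB2 (2.29), and the other 5 genes were under 1 FPKM. In 5637 sh-LNMAT1#1 the leading genes were AREG (60.7), EREG (47.3), EGFR (31.0) and ERRFI1 (24.5), in that order, which was the same per merged exon length, whereas the order of the genes below them depended on how exon length is counted. EGFR and HBEGF changed places among the UM-UC-3 libraries, with HBEGF at 17.6 and EGFR at 13.8 FPKM in sh-LNMAT1#1, so their order does not hold beyond the spread of these libraries.

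Counted over both hairpins, 5 of the 10 genes were kept in UM-UC-3 by a mean of at least 1 FPKM, and 0 of these 5 was at least 2-fold above UM-UC-3 sh-NC with both hairpins, beside 1.08% of 12024 kept genes, and 0 of 5 was at least 2-fold below it, beside 0.358%. Against the library labelled 5637 sh-NC, 8 of the 10 were kept. Of these, 5 were at least 2-fold above it with both hairpins (EGFR, ERBB2, ERBB3, AREG and TGFA), beside 18.5% of 12790 kept genes, and 1 (ERRFI1) was at least 2-fold below it, beside 12.3%. AREG, ERBB3 and TGFA passed that minimum only through the silenced libraries, so the count of 5 supports nothing by itself. With UM-UC-3 sh-NC in place of the library labelled 5637 sh-NC, EGFR no longer reached 2-fold and 5 genes did, namely ERBB2, ERBB3, AREG, TGFA and ERRFI1, beside 27.8% of 12672 kept genes, and ERBB3, AREG and TGFA again passed the minimum only through the silenced libraries.

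The study's own question, control against silenced cells in both lines, was fitted with limma over the 6 libraries with the line as a covariate. Of 12716 genes 0 passed, which is 0%, although 811 had an unadjusted p under 0.05, and 0 of the 8 tested members were called. The pooled log2 difference was 3.23 ± 1.16 for AREG, 1.81 ± 0.71 for TGFA and -1.43 ± 0.51 for ERRFI1, each with a limma adjusted p of 0.569. Without the library labelled 5637 sh-NC these values were 0.53, 0.62 and -0.31, and that of EGFR went from 0.45 to -0.20 and that of ERBB3 from 1.43 to -0.24. Without UM-UC-3 sh-NC, 3947 genes (31.0%) were called, among them AREG, TGFA, ERBB3, ERBB2, EGFR and ERRFI1, but there the library labelled 5637 sh-NC is the only control. LINC01296 itself had a pooled difference of -1.40 ± 0.35 with a limma adjusted p of 0.569.

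The interaction of line and knockdown in limma compares the 5637 contrast with the UM-UC-3 contrast and therefore rests on the library labelled 5637 sh-NC; it could not be fitted without it. Each control arm is 1 library, so the spread comes from the silenced libraries alone, on 2 residual degrees of freedom. Since the library labelled 5637 sh-NC resembles the UM-UC-3 libraries, an interaction cannot be told apart from the difference between the lines. The values coincided for ERBB2, at 1.90 in each fit. They parted for other members, for example EREG (-1.02 for the interaction, -0.04 between the lines) and ERRFI1 (-2.24 and -3.01). The interaction was 5.41 ± 0.63 for AREG, 3.34 ± 0.35 for ERBB3, 1.90 ± 0.37 for ERBB2 and 1.30 ± 0.31 for EGFR, with limma adjusted p of 0.00603, 0.00457, 0.0246 and 0.0448. These 4 were the members called higher, beside 10% of 12716 genes, but AREG and ERBB3 passed the minimum level only through the 5637 sh-LNMAT1 libraries, so their calls add nothing to that count. With pseudocounts of 0.1 and 1 FPKM the ERBB3 interaction was 5.57 and 2.44. ERRFI1 was the 1 member called lower, at -2.24 ± 0.35 with a limma adjusted p of 0.0136, beside 8.79% of genes. TGFA (2.37 ± 0.95), EREG (-1.02 ± 0.35) and HBEGF (0.20 ± 0.62) did not pass, with limma adjusted p of 0.137, 0.0997 and 0.838. Over the alternatives, the limma adjusted p of EGFR lay between 0.0362 and 0.213, that of ERBB2 between 0.0231 and 0.221, that of AREG between 0.00426 and 0.0585 and that of ERRFI1 between 0.0123 and 0.123. The EGFR call also ended with scaling to the 75th percentile (0.0534), with no trend (0.0515) and with a filter of 5 FPKM (0.0530), and the calls of AREG (0.0585) and ERRFI1 (0.0512) with no filter. Leaving out 5637 sh-LNMAT1#1 or 5637 sh-LNMAT1#2 leaves 1 silenced 5637 library, and most calls over all genes ended in either setting. Those of EGFR, ERBB2 and ERRFI1 ended as well. Their interactions were then 1.30 and 1.29 for EGFR, 1.81 and 1.99 for ERBB2 and -2.33 and -2.15 for ERRFI1. ERBB3 (3.45 and 3.24) and AREG (5.36 and 5.46) had been selected to differ.

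In the comparison of the silenced lines, the members called were 5 higher in 5637 (AREG, TGFA, ERBB3, ERBB2 and EGFR), beside 18.5% of 12716 genes, and 1 lower (ERRFI1), beside 19.1%. As AREG, TGFA and ERBB3 had to differ, EGFR, ERBB2 and ERRFI1 were the members whose calls the minimum level did not fix. The comparisons share libraries, and their values are set side by side for that reason.

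**Figure D4:**
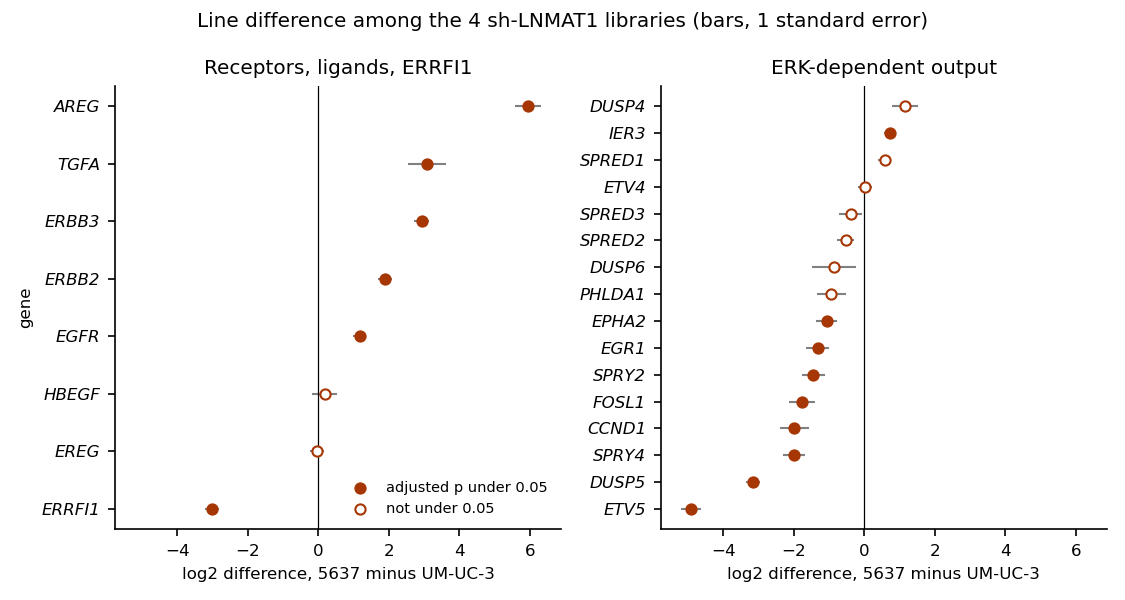
Log2 difference between the 5637 and the UM-UC-3 sh-LNMAT1 libraries (horizontal axis, positive where 5637 is higher) for the 8 tested members and for 16 tested genes of ERK-dependent output (vertical axes), with bars of 1 standard error and filled points for a limma adjusted p under 0.05. AREG (5.95) and ERRFI1 (-3.01) mark the ends on the left, and ETV5 (-4.91) and DUSP5 (-3.15) are lowest on the right.

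Other genes of the pathway were taken from 5 lists, whose calls between the silenced lines stand beside 18.5% higher and 19.1% lower of all 12716 genes. The calls of listed genes were not followed under the alternatives, which were read for the members and for all genes together. Of the 6 family genes outside the 10, 4 stayed under 1 FPKM in each library. The receptor ERBB4 reached no more than 0.0625 FPKM, the ligand EGF 0.0431, NRG3 0.0444 and NRG4 0.415 FPKM. NRG1, encoding the ligand neuregulin 1 of ERBB3 and ERBB4, stood at 7.51, 3.48 and 7.56 FPKM in the UM-UC-3 libraries, 3.22 in the library labelled 5637 sh-NC, and 1.45 and 1.29 in the 5637 sh-LNMAT1 libraries. NRG2 stood at 2.85, 2.07 and 2.13 FPKM, at 2.35, and at 0.0997 and 0.0510 FPKM in the same order. NRG1 and NRG2 were low where ERBB3 was high. NRG4 ran the other way, at 0.415 and 0.404 FPKM (87 and 79 fragments) in the 5637 sh-LNMAT1 libraries against at most 0.0796 FPKM in the others. Between the silenced lines NRG1 and NRG2 were lower in 5637, by -1.60 ± 0.37 and -2.18 ± 0.21 (limma adjusted p of 0.0228 and 0.00146). The median of these tested genes was -1.89, beside -0.05 over all genes. NRG2 passed the minimum level only through the libraries where it was high, so it had to differ.

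Of the 4 genes for ligand shedding, 1 was higher and 1 lower in 5637 between the silenced lines, with a median of 0.48. RHBDF2, encoding iRhom2, which carries the sheddase ADAM17 to the surface, was higher by 1.52 ± 0.35 (limma adjusted p of 0.0243), and ADAM17, which cuts most ligands listed here, was lower by -1.0 ± 0.18 (limma adjusted p of 0.0117). ADAM17 stood at 27.1, 30.5 and 28.7 FPKM in the UM-UC-3 libraries, 30.5 in the library labelled 5637 sh-NC, and 14.8 and 14.3 in the 5637 sh-LNMAT1 libraries. ADAM10, the other sheddase, stood between 7.41 and 14.8 FPKM and was not called.

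Of 13 genes that relay the signal from receptor to ERK, 12 were tested, 2 were higher and 3 lower in 5637, with a median of -0.13, so that the list was near the shares over all genes. ARAF was higher by 1.70 ± 0.21 (limma adjusted p of 0.00312), whereas BRAF was lower by -1.21 ± 0.20 (limma adjusted p of 0.00831). ARAF stood at 5.78, 4.51 and 5.70 FPKM in the UM-UC-3 libraries, 3.83 in the library labelled 5637 sh-NC, and 17.6 and 17.7 in the 5637 sh-LNMAT1 libraries. Of the RAS genes, HRAS was higher by 1.53 ± 0.21 and NRAS was lower by -0.77 ± 0.21 (limma adjusted p of 0.00458 and 0.0354). PTPN11, encoding the phosphatase SHP2 that helps to activate RAS, was lower by -1.0 ± 0.24 (limma adjusted p of 0.0249). Its level was 26.6, 55.5 and 41.9 FPKM in the UM-UC-3 libraries and 53.4 in the library labelled 5637 sh-NC. In the 5637 sh-LNMAT1 libraries it was 21.5 and 26.5 FPKM, so UM-UC-3 sh-NC lay close to these. Neither the MEK genes MAP2K1 and MAP2K2 nor the ERK gene MAPK3 were called, with differences between -0.49 and 0.35.

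Of the 11 genes that restrain the receptors, 10 were tested, with 1 higher, 1 lower and a median of -0.16. CBLC, a ubiquitin ligase of epithelia, stood at 0.0256, 0 and 0.0276 FPKM in the UM-UC-3 libraries, 0 in the library labelled 5637 sh-NC, and 47.2 and 31.5 FPKM in the 5637 sh-LNMAT1 libraries. It passed the minimum level only through the latter and was higher by 6.25 ± 0.26 (limma adjusted p of 0.000170). CBL, the paralog that marks EGFR for degradation, was lower by -1.32 ± 0.19 (limma adjusted p of 0.00528).

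In ERK-dependent output, 16 of 17 genes were tested, with 1 higher and 8 lower, beside 18.5% and 19.1% of all genes, and a median of -1.0 beside -0.05 over all genes. ETV5, a transcription factor induced by ERK, stood at 21.6, 27.0 and 17.1 FPKM in the UM-UC-3 libraries, 22.0 in the library labelled 5637 sh-NC, and 0.163 and 0.305 in the 5637 sh-LNMAT1 libraries. DUSP5, a nuclear phosphatase that removes phosphate from ERK, stood at 38.5, 106 and 99.2 FPKM, at 100.2, and at 10.04 and 12.3 FPKM in the same order. Both were low in the 5637 sh-LNMAT1 libraries, and DUSP5 was also lower in UM-UC-3 sh-NC than in the other UM-UC-3 libraries. Between the silenced lines ETV5 was lower in 5637 by -4.91 ± 0.29 and DUSP5 by -3.15 ± 0.20 (limma adjusted p of 0.000307 and 0.000375), and ETV5, under 1 FPKM in 5637, could enter the test only through the libraries where it was high. The other genes called lower were the feedback inhibitors SPRY4 (-1.99 ± 0.32) and SPRY2 (-1.45 ± 0.33), CCND1 (-1.98 ± 0.40), which encodes cyclin D1, the transcription factors FOSL1 (-1.76 ± 0.37) and EGR1 (-1.32 ± 0.32), and the receptor gene EPHA2 (-1.07 ± 0.29), with limma adjusted p between 0.00800 and 0.0351. IER3, an immediate early gene, was higher by 0.73 ± 0.18 (limma adjusted p of 0.0270).

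In UM-UC-3, DUSP5 was at least 2-fold above UM-UC-3 sh-NC with both hairpins, at log2 differences of 1.45 and 1.35, and no other gene of the 5 lists was at least 2-fold away with both hairpins, beside 1.08% of all kept genes above and 0.358% below. Against the library labelled 5637 sh-NC, 1 of 15 kept genes of ERK-dependent output was at least 2-fold above it (IER3) and 10 were at least 2-fold below it, beside 18.5% and 12.3% of all kept genes, with a median of -1.49 beside 0.06 over all kept genes. DUSP5 stood at -3.26 and -2.98 there. Of 12 relay genes, 2 were at least 2-fold above and 1 below it, with a median of 0.00, and of 11 restraint genes 1 was above and 2 below, with a median of 0.02. Of the 4 shedding genes 1 was above and 1 below, with a median of 0.40, and NRG1, the only kept gene of the family outside the 10, was at -0.94 and -1.06. The interaction was called for 4 of the 16 tested genes of ERK-dependent output, all lower (ETV5, DUSP5, FOSL1 and SPRY2), for 2 relay genes higher and 2 lower, for 1 restraint gene each way, for NRG2 lower (beside 10% higher and 8.79% lower of all tested genes) and for 0 of the 4 shedding genes, of which ADAM17 had an unadjusted limma p of 0.0122 and RHBDF2 of 0.0239.

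For each member with a mean of at least 1 FPKM, the genes with the most similar pattern were sought by Pearson r of log2(FPKM + 0.5) over the 6 libraries, among 6015 or 6016 genes. The libraries fall into sets, so a high r reflects mostly the contrast of the 5637 sh-LNMAT1 libraries with the rest. Pearson r also ignores the size of a difference. PHF20, listed below for AREG, stood between 7.69 and 7.94 FPKM in the UM-UC-3 libraries and at 9.8 and 9.7 FPKM in the 5637 sh-LNMAT1 libraries. The most similar were LUC7L3, ATL2 and FAM105A for EGFR (highest r of 0.9992), FAM171A2, FAT1 and EHD2 for ERBB2 (0.9994), LAPTM5, NPC2 and VHL for ERBB3 (0.9988) and DDR1, EXT2 and PHF20 for AREG (0.9995). DDR1, a collagen receptor kinase, stood at 1.34, 1.84 and 1.36 FPKM in the UM-UC-3 libraries, 1.55 in the library labelled 5637 sh-NC, and 12.5 and 12.4 in the 5637 sh-LNMAT1 libraries. For TGFA they were ABHD17B, GSS and ATP6AP2 (0.9966), and for ERRFI1 ELOVL2, ADIPOR2 and RNF182 (0.9994). ELOVL2, an enzyme that lengthens fatty acids, stood at 31.4, 24.1 and 28.0 FPKM, at 20.1, and at 5.95 and 5.10 FPKM in the same order. EREG, nearest to CIR1, ECI1 and TMED9 (0.9876), and HBEGF, nearest to TMEM87A, HSPE1 and UBE2G2 (0.9414), did not follow that contrast. TMED9, a trafficking protein, was likewise low in the UM-UC-3 control, at 18.2 FPKM, and stood between 27.7 and 40.4 FPKM in the other 5 libraries.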

How the data were processed

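Messenger RNA of 6 libraries, 1 for each line and construct, was measured with a stranded library kit; whether the counting used the strand is not stated. The authors deposited FPKM per gene, made with HISAT2 on hg38 per the submitters' processing notes, which give no versions; the counting program and the annotation are not given in the sources used here. Of 50869 lines of the table, 2 were left out, 1 without values and 1 continuation line naming no gene. Depth came from single-exon genes in GENCODE release 29, where at least 99.95% of values were whole fragments (tolerance 0.02). Genes with several exons gave whole fragments for 95.8% of values under 30 fragments when each differing exon was counted in full and for 43.3% with merged exons, so the former length was used for fragments. Of the 10 members, 8 had the same position in that release; for EGFR and ERBB3, fragments are approximate.

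The members and lists were chosen with earlier results of these data known. A few listed genes are not reported here and were left out of their lists. Differences used log2(FPKM + 0.5). A gene was kept if its FPKM averaged at least 1 over the libraries compared (over all 6 for the fits). Each sh-LNMAT1 library was set against the sh-NC library of its label without a test. The models were fitted with limma 3.58.1 in R 4.3.3 (lmFit, eBayes with a trend) and called at a Benjamini-Hochberg adjusted p under 0.05, a pooled knockdown effect with the line as covariate, the interaction of line and knockdown, and the line difference among the 4 sh-LNMAT1 libraries; the fits were tested on simulated data. Ratios of fragments carry exact (Clopper-Pearson) 95% intervals. Python 3.11.15, numpy 2.4.6, pandas 2.3.3 and matplotlib 3.10.9 were used. Named genes were the members, LINC01296, genes of each list past a test (otherwise the 2 with the largest difference each way), and the 3 genes most like each kept member. The latter were found by Pearson r among 6015 or 6016 of the 6249 genes averaging 5 FPKM or more. The genes named from the neighbourhood on chromosome 4 and those within the range statements were chosen after their values were seen.

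Alternatives were pseudocounts of 0.1 and 1 FPKM, no filter and a filter of 5 FPKM, scaling to the 75th percentile, other folds (1.5 and 4), single hairpins, no trend, other covariates, other sets of libraries and leaving out each library. The use of UM-UC-3 sh-NC in place of the library labelled 5637 sh-NC and the merged exon length for ligand and receptor shares were added after seeing the data.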

Additional observations from a re-analysis of the deposited data

Results flagged for a closer look

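The limma interaction of line and knockdown had an adjusted p under 0.05 for the members and listed genes given here, as 5637 minus UM-UC-3 on the log2 scale. Each value rests on the library labelled 5637 sh-NC, on 1 sh-NC library per line and on 2 residual degrees of freedom, with the spread taken from the silenced libraries alone, and cannot be told apart from the difference between the lines. The sizes were not always alike. They exceeded the line difference for DUSP5 (-3.15) and PTPN11 (-1.0), and fell short of it for AREG (5.95) and ERRFI1 (-3.01). DUSP5 and PTPN11 were also above UM-UC-3 sh-NC, by 1.45 and 1.35 and by 1.04 and 0.64 with the hairpins. AREG, ERBB3 and CBLC passed the minimum level only through the 5637 sh-LNMAT1 libraries, and NRG2 and ETV5 only through the other 4, so these genes were selected to differ. The EGFR call held in 5 of 10 alternatives.

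Among the members, the interaction was 5.41 for AREG, 3.34 for ERBB3, 1.90 for ERBB2, 1.30 for EGFR and -2.24 for ERRFI1. In the family outside the 10, it was -1.95 for NRG2. Among relay genes it was 2.24 for ARAF, 1.64 for HRAS, -1.40 for BRAF and -1.99 for PTPN11. Of the genes that restrain the receptors, CBLC had 6.32 and CBL -1.57. In ERK-dependent output it was -4.94 for ETV5, -4.52 for DUSP5, -2.68 for FOSL1 and -2.61 for SPRY2.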

How the results depend on the processing

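At 1.5-fold, 1 member (EREG) differed from UM-UC-3 sh-NC with both hairpins, in place of 0, beside 816 of 12024 genes (6.79%). The interaction was called for 3 members with no filter (beside 7.96% of 36963 genes) and for 3 with a filter of 5 FPKM (beside 14.2% of 6249), in place of 5 (beside 18.8% of 12716), where the number of genes tested differs, and for EGFR it also ended with scaling to the 75th percentile and with no trend. With 6 libraries as labelled, 0 members were called between the lines (beside 0.0157% of 12716 genes), in place of 6 (beside 37.6%). The line difference of EREG went from -0.04 to 0.22 with 5 libraries, which add UM-UC-3 sh-NC, where EREG was lowest (26.1 FPKM). It went to 0.30 with 6 libraries as labelled, which also add the library labelled 5637 sh-NC (51.7 FPKM).

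Leaving out 1 library at a time can leave 1 library in a group, so the members called are not counted again here and the differences are given. Where a direction turned, the pooled difference ranged from -0.20 to 1.1 for EGFR, from -0.24 to 3.10 for ERBB3, from -0.23 to 0.78 for EREG and from -0.32 to 0.07 for HBEGF. The interaction of HBEGF ranged from -0.25 to 0.65, and the line difference from -0.17 to 0.08 for EREG and from -0.27 to 0.63 for HBEGF. The interaction could not be fitted without either sh-NC library. No paired analysis was possible because the labels carry no replicate numbers, other than by hairpin between the lines. There the hairpin as covariate gave 6 members called, beside 5143 of 12716 genes (40.4%), with 1 residual degree of freedom. Of these members AREG, TGFA and ERBB3 had to differ, as above.

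Over all genes, 173 were at least 2-fold from UM-UC-3 sh-NC with both hairpins, and between 12 (4-fold) and 1304 (sh-LNMAT1#1 alone) under the alternatives. Against the library labelled 5637 sh-NC the count was 3932, and between 1476 (4-fold) and 6452 (1.5-fold). Interaction calls numbered 2389, and 684 to 4027 with a library left out or 889 with a filter of 5 FPKM. Line calls numbered 4779, and 1248 to 5172 with a library left out, 2191 with that filter or 2 with 6 libraries as labelled.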

Other observations

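Other transcripts of the table overlap the receptor genes. EGFR-AS1, transcribed from the strand opposite to EGFR, stood at 0.188, 0.192 and 0.124 FPKM in the UM-UC-3 libraries, 0.175 in the library labelled 5637 sh-NC, and 0.308 and 0.276 in the 5637 sh-LNMAT1 libraries, so it was highest where EGFR was highest and far below it in each library. ELDR, also opposite to EGFR, reached no more than 0.0877 FPKM.

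PGAP3 and MIEN1, which lie on the strand opposite to ERBB2 and overlap its ends, parted. PGAP3, an enzyme that remodels GPI anchors, stood at 0.749, 0.692 and 0.807 FPKM in the UM-UC-3 libraries, 0.749 in the library labelled 5637 sh-NC, and 1.77 and 1.80 in the 5637 sh-LNMAT1 libraries, and followed the split of ERBB2. MIEN1 stood at 2.40, 5.96 and 4.14 FPKM, at 7.28, and at 5.62 and 3.99 FPKM in the same order and did not. Whether reads of overlapping genes were told apart by strand is not stated. Strand would not separate RP11-603J24.9, which overlaps ERBB3 on the same strand. It stood at 1.47 FPKM in 5637 sh-LNMAT1#1 and at 0 in 5637 sh-LNMAT1#2. RP11-339F13.2, on the strand of EGFR, reached no more than 0.0621 FPKM.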
